A study of Mus musculus with 6 samples.

Results

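The 10 genes Ier2, Ier3, Ier5, Nr4a1, Nr4a2, Zfp36, Zfp36l1, Zfp36l2, Btg1 and Btg2 are immediate early genes outside the EGR, AP-1, KLF and DUSP families. They were chosen by name, and every probe set that the platform annotation gives to 1 of these symbols alone was used, which gave 23 of 45037 probe sets and 10 of 18193 genes. Expression was measured on Affymetrix arrays, which read the abundance of a transcript through sets of short probes, in embryonic stem (ES) cells of 129SV mice. Of the 6 arrays, 3 came from wild-type cells and 3 from cells with a knockout of Med23, a gene of Mediator, the complex that relays signals from transcription factors to RNA polymerase II. Both groups spent 24 hours in fresh complete medium before harvest, with no other treatment named. The sources used here do not say how the knockout was made or whether each group is 1 clone.

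Immediate early genes are transcribed promptly after a growth factor or stress signal, with no need for new protein. Many are switched on when MAP kinases phosphorylate ELK1, an ETS family factor that sits beside the serum response factor SRF on a DNA element called the CArG box, and phosphorylated ELK1 is known to bind MED23. The 10 genes act after that first step at different levels. The IER proteins are short-lived regulators of growth and stress responses, and the NR4A proteins are orphan nuclear receptors. The ZFP36 proteins bind AU-rich elements in messenger RNAs and bring in the CCR4-NOT deadenylase, which starts decay of the message. The BTG proteins restrain proliferation and bind the same deadenylase.

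Across the family, 5 of the 10 genes fell in the knockout, 1 rose and 4 did not pass the test. Ier2, Nr4a1, Zfp36, Zfp36l2 and Btg2 were 1.38-fold to 1.97-fold lower, and Zfp36l1 was 1.5-fold higher. Over all 18193 genes, 10.4% were lower and 8.53% higher past the same test, limma with p values adjusted by Benjamini-Hochberg across every probe set, taken as past at under 0.05. Among the 11607 genes with a mean above the median of all probe sets, as all 10 were, the shares were 14.5% and 12.2%. The median log2 fold change was -0.36 over the 10 genes and 0.02 over all genes. None of the 10 changed 2-fold, which 475 of all genes did past the test. In 5 genes every knockout array lay below every wild-type array, and in 2, Ier3 and Zfp36l1, every knockout array lay above. Groups that do not overlap occurred in 19.5% of all genes downwards and in 21.4% upwards. Each of the 4 families held a gene that passed the test, and only the ZFP36 family held no gene that did not, as the plot of values by array shows.

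**Figure D1:**
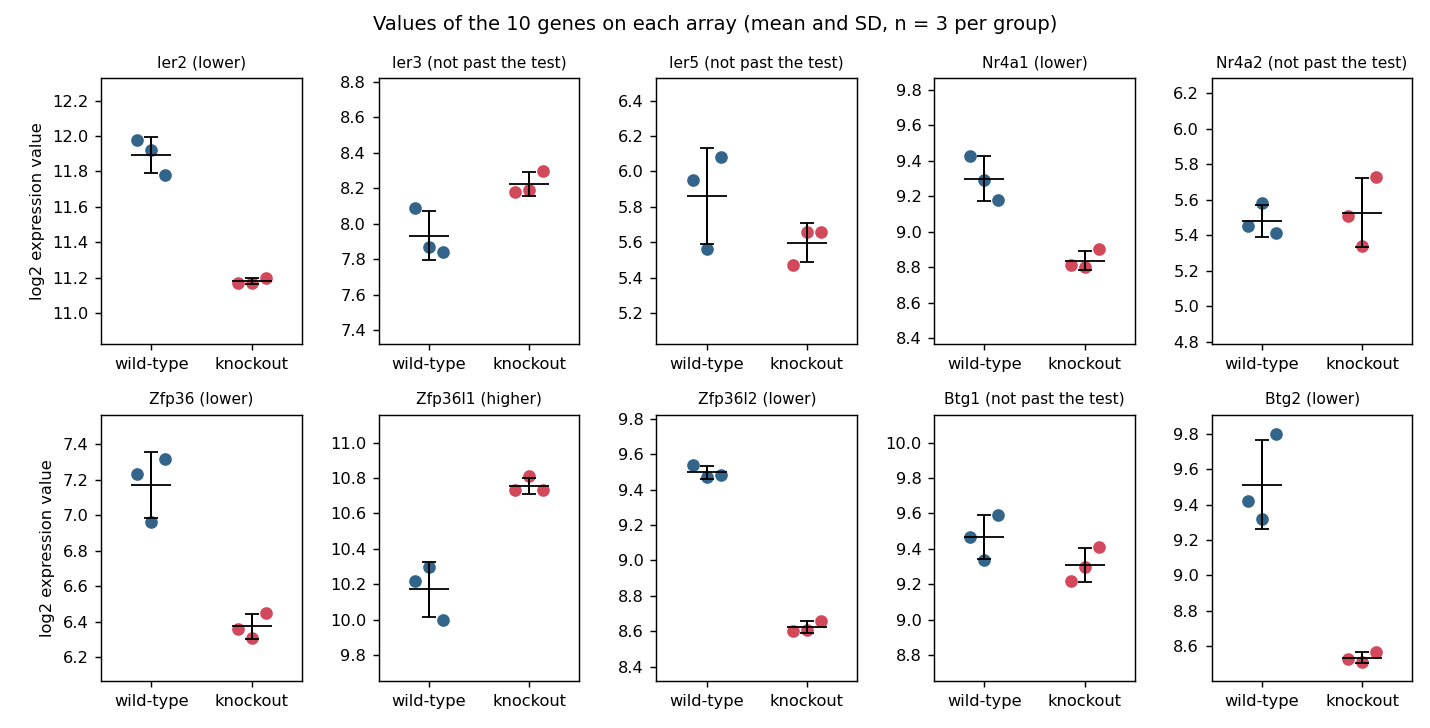
Log2 expression value of each of the 10 genes (vertical axes, all spanning the same width) on each wild-type (blue) and knockout (red) array, read by the gene's brightest probe set; bars are the mean and SD, n = 3 per group. The knockout arrays sit below all wild-type arrays for Ier2, Nr4a1, Zfp36, Zfp36l2 and Btg2 and above them for Zfp36l1 and Ier3, while the groups overlap for Ier5, Nr4a2 and Btg1.

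The arrays and groups were checked first. The median log2 value per array lay between 4.61 and 4.64. Wild-type replicate 1 stood apart, with 752 probe sets reading at least 2-fold under the mean of the other two wild-type arrays. The fit without it kept the calls of the 6 genes that changed. Med23 itself went from 8.88 to 7.37 (log2), in the direction of the labels. The pluripotency genes Pou5f1, Nanog and Sox2, which mark ES cells, had group means between 11.54 and 12.96 and did not pass the test. Of the 10 pluripotency markers listed, 3 fell (30%, against 10.4% of all genes) and none rose. These were Klf4 (-0.63, limma adjusted p = 0.00272), Fgf4 (-0.37, adjusted p = 0.0214) and Tdgf1 (-0.28, adjusted p = 0.0454). When 1 array was left out, 1 to 3 fell and 0 to 2 rose. The Y-linked genes Eif2s3y and Uba1y went from 3.04 and 2.82 in wild-type to 9.87 and 9.02 in knockout arrays, so the groups differ in more than Med23, and in every value that follows the effect of Med23 and other differences of the lines cannot be told apart. Of 13 endoderm markers, 11 fell and none rose (limma, adjusted p under 0.05). Their summed level on the linear scale was 4342 to 5450 in wild-type and 880.7 to 999.9 in knockout arrays. Of 8 trophoblast markers 3 fell, the simple keratin genes Krt7, Krt8 and Krt18, while the lineage factors Cdx2, Eomes, Elf5, Hand1 and Tfap2c did not pass. Their sums were 2949 to 3292 and 1172 to 1250, of which Krt8 and Krt18, at means of 10.55 and 9.95 (log2) in wild-type, hold most in that group. The largest falls among the endoderm markers were those of Col4a2 (-3.71), Col4a1 (-3.41) and Dab2 (-3.38). The endoderm markers Afp and Ttr, which did not pass, had group means of 3.81 to 4.47 and did not reach the all-array median of 4.62. The part of these markers in the values of the 10 genes was not tested, and in such bulk samples fewer cells of a type and less RNA per cell cannot be told apart.

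DNA just before the annotated start was available from RefSeq (build GRCm38.p6) for 8 of the 10 genes, all but Ier2 and Zfp36l2. The windows searched run from 250 bases before to 50 bases after the start, and 32851 such windows of all genes gave the background. Searched on both strands were the CArG box CCWWWWWWGG, where W is A or T, the cAMP response element TGACGTCA and its core TGACG. The ETS motif CCGGAAG, the EGR motifs GCGGGGGCG and GCGTGGGCG and the TATA box TATAAA were searched in the same way. Only exact matches were counted, so sites that differ by a base are missed. The core TGACG lies inside TGACGTCA. TGACGTCA reads the same on both strands, and the CArG pattern matches on both. Shown here are the 250 bases before the start, with every match in capitals, of 3 genes that fell and of the 1 that rose. A match on the opposite strand appears as its reverse complement, such as the 4 CGTCA of Nr4a1. They lie at chr7:28379229-28379478 (minus strand) for Zfp36, chr15:101266596-101266845 (plus strand) for Nr4a1, where the annotated start lies inside the longest gene model, chr1:134079156-134079405 (minus strand) for Btg2 and chr12:80113014-80113263 (minus strand) for Zfp36l1.
Zfp36: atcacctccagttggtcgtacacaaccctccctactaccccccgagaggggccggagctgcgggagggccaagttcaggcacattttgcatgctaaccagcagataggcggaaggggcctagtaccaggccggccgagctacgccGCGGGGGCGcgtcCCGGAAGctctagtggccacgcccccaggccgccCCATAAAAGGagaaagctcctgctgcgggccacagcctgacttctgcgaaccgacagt
Nr4a1: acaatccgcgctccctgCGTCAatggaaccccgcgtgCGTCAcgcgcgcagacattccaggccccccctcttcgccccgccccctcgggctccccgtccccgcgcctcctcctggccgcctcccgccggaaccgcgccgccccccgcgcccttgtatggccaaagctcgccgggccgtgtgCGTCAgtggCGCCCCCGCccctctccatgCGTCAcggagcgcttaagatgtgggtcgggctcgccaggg
Btg2: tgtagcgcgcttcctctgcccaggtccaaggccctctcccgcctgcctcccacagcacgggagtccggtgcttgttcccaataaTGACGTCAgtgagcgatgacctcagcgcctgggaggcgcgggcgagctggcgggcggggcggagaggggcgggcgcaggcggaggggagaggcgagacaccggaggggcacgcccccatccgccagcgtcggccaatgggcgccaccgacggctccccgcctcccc
Zfp36l1: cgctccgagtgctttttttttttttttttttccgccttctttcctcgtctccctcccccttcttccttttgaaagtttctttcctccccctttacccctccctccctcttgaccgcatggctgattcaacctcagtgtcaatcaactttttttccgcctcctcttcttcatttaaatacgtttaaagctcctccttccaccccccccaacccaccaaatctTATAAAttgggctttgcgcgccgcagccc

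The Zfp36 window was the only one of the 8 to hold an exact CArG box, 58 to 49 bases before the start, a motif present in 1.63% of all windows. An ETS motif lay 92 to 86 bases before the start (8.86% of all windows) and an EGR motif, GCGGGGGCG, 105 to 97 bases before it (2.91%). The Nr4a1 window held the same EGR motif 60 to 52 bases before the start and 4 TGACG cores. At least 1 such core lay in 20.8% of all windows. The Btg2 window held a full TGACGTCA 166 to 159 bases before the start (1.79% of all windows). In Zfp36l1 the only match was a TATA box 29 to 24 bases before the start (13.6% of all windows). Of the genes that did not pass the test, Ier3 and Ier5 held no match. Nr4a2 held 4 TGACG cores and, on the strand opposite to the gene, a TATAAA match 164 to 159 bases before the start. Btg1 held 2 cores and a TATA box 26 to 21 bases before the start, on the strand of the gene as in Zfp36l1. GCGTGGGCG, in 0.612% of all windows, was in none of the 8. The bases G and C made up 63.7% of the Zfp36 window, 72.3% of Nr4a1, 72.0% of Btg2 and 52.0% of Zfp36l1. In Ier3, Ier5, Nr4a2 and Btg1 they made up 54.0%, 59.0%, 81.7% and 64.7%. The median of all windows was 52.7%. The shares of all windows given here were not matched for this content, so they are no measure of how rare a match is in windows of like content. These are matches of letters in a window, and binding was not measured.

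**Figure D2:**
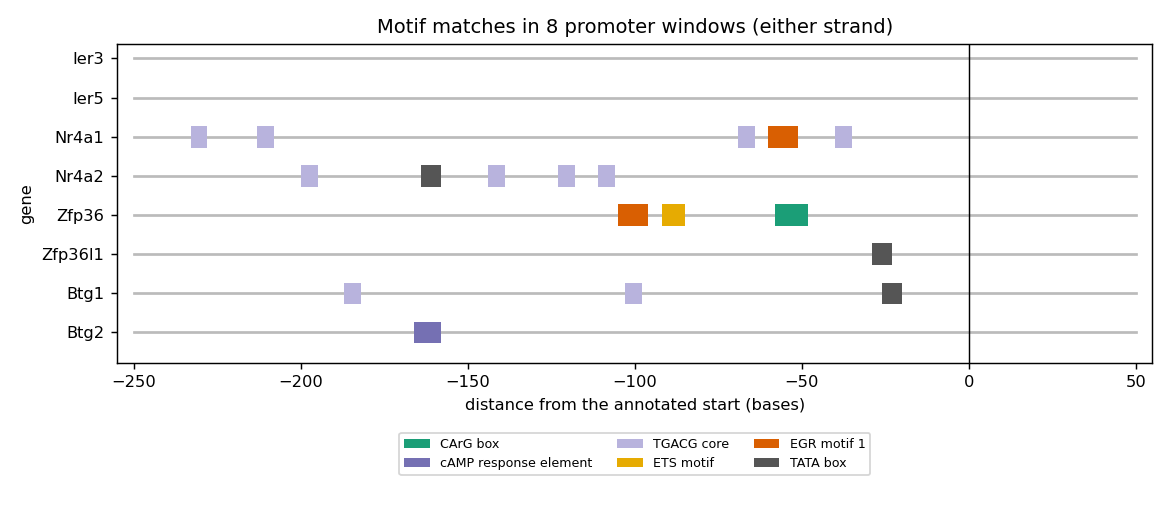
Motif matches on either strand in the 8 promoter windows; the horizontal axis is the distance in bases from the annotated start, each grey line is a window from 250 bases before to 50 after, and EGR motif 1 stands for GCGGGGGCG. The CArG box, ETS motif and EGR motif of Zfp36 lie within 105 bases of the start, and the windows of Ier3 and Ier5 are empty.

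The ZFP36 family was split in direction. Zfp36 (chr7:28376784-28379228), the gene of tristetraprolin, read 7.23, 6.96 and 7.32 (log2) on wild-type replicates 1, 2 and 3 and 6.36, 6.31 and 6.45 on knockout replicates 1, 2 and 3. All knockout arrays lay below all wild-type arrays, with a gap of 0.50 between the groups. The means were 7.17 ± 0.19 and 6.37 ± 0.07 (SD, n = 3), so that knockout minus wild-type was -0.80 (limma, SE 0.10, adjusted p = 0.00298) and the gene 1.74-fold lower. Zfp36l2 (chr17:84183924-84187947), which encodes a relative known for its roles in the egg and in blood stem cells, read 9.54, 9.47 and 9.48 on the wild-type arrays and 8.60, 8.61 and 8.66 on the knockout arrays. Each group lay within a span of under 0.1, and the gap between them was 0.81. The means were 9.50 ± 0.04 and 8.62 ± 0.03 (SD, n = 3), a difference of -0.87 (limma, SE 0.06, adjusted p = 0.000183) that is 1.83-fold.

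Zfp36l1 (chr12:80107760-80113013), a relative needed for placenta and vessel development, went the other way. Its brightest probe set read 10.22, 10.30 and 10 on the wild-type arrays and 10.73, 10.81 and 10.73 on the knockout arrays. The means were 10.17 ± 0.16 and 10.76 ± 0.05 (SD, n = 3), and knockout minus wild-type was 0.58 (limma, SE 0.09, adjusted p = 0.00615). A second probe set of the gene read 8.15, 7.88 and 7.5 against 8.53, 8.58 and 8.56, a change of 0.72 (SE 0.15, adjusted p = 0.0213). Both therefore rose with no overlap. The call of the second was lost without wild-type replicate 2 (adjusted p = 0.0679) and without any 1 of the knockout arrays (0.0654, 0.0751 and 0.071 without replicates 1, 2 and 3), while its change was 0.71 to 0.73 in those fits. The call of the brightest probe set held in all 6 fits that left out 1 array, with adjusted p values up to 0.0323.

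The size of the Zfp36l2 fall depended on the probe set. Of its 3 probe sets, the brightest passed the test. Of the others, 1 had means of 6.29 and 6.13, a change of -0.16 (95% interval -0.37 to 0.05, limma adjusted p = 0.319), and the other, with means of 4.36 and 4.13 that do not reach the all-array median, a change of -0.23 (95% interval -0.43 to -0.02, adjusted p = 0.144). All 3 changes had the same sign. With the mean of the 3 in place of the brightest, Zfp36l2 changed by -0.42 (adjusted p = 0.00426). Over the 10 genes, 6 of 23 probe sets fell and 2 rose, against 7.43% and 6.69% of all 45037 probe sets, and in no gene did probe sets pass in opposite directions.

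**Figure D3:**
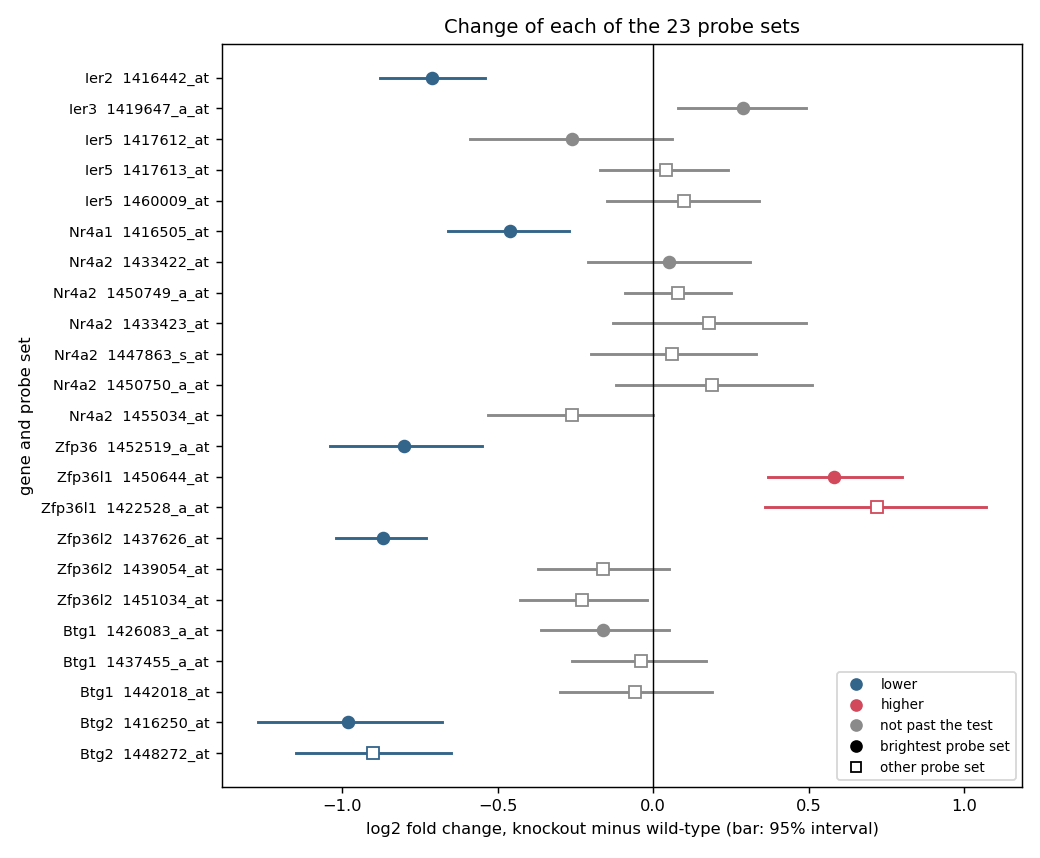
Log2 fold change, knockout minus wild-type, of each of the 23 probe sets (vertical axis) with its 95% interval from limma; filled circles mark the brightest probe set of a gene, open squares the others, and blue, red and grey mark lower, higher and not past the test. The 2 probe sets of Zfp36l1 lie above 0 and those of Btg2 below it, whereas 1 of the 3 Zfp36l2 probe sets stands apart from the other two at -0.87.

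Of the BTG genes, Btg2 fell and Btg1 did not pass the test. Btg2 (chr1:134074865-134079155), a p53-induced gene that slows the cell cycle, read 9.42, 9.32 and 9.80 on the wild-type arrays and 8.53, 8.51 and 8.57 on the knockout arrays. It was high on all wild-type arrays, highest on replicate 3, and the gap between the groups was 0.75. The means were 9.52 ± 0.25 and 8.54 ± 0.03 (SD, n = 3), a difference of -0.98 (limma, SE 0.12, adjusted p = 0.00255) that is 1.97-fold. This was the largest change of the 10 with all arrays. Without wild-type replicate 3 it was -0.83, smaller than the -0.88 of Zfp36l2 in the same fit. The other probe set of Btg2 fell by 0.90 on the log2 scale (SE 0.11, adjusted p = 0.00174). Btg1 (chr10:96617001-96622813), the close relative of Btg2, read 9.47, 9.34 and 9.59 against 9.22, 9.30 and 9.41. Its groups overlapped, and its change of -0.16 did not pass (95% interval -0.36 to 0.05, adjusted p = 0.318). The other 2 probe sets of Btg1 differed by -0.04 and -0.06 and did not pass.

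Of the IER genes, Ier2 (chr8:84661331-84662852), which encodes a nuclear protein that affects transcription and cell movement, fell. It read 11.98, 11.92 and 11.78 on the wild-type arrays and 11.17, 11.17 and 11.20 on the knockout arrays. The knockout arrays were within 0.03 of each other and 0.58 below the lowest wild-type array. From means of 11.89 ± 0.11 and 11.18 ± 0.02 (SD, n = 3), the difference was -0.71 (limma, SE 0.07, adjusted p = 0.000995), or 1.64-fold.

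Ier3 (chr17:35821713-35822911), which encodes a stress-induced regulator of cell survival, read 8.09, 7.87 and 7.84 on the wild-type arrays and 8.18, 8.19 and 8.30 on the knockout arrays. The groups did not overlap, but only 0.08 lay between them, and the change of 0.29 did not pass (95% interval 0.08 to 0.49, limma adjusted p = 0.0752). Without wild-type replicate 1, the highest of its group for this gene, the change was 0.37 and passed (adjusted p = 0.018). Ier5 (chr1:155096367-155099636), whose product activates the heat shock factor HSF1, read 5.95, 5.56 and 6.08 against 5.47, 5.66 and 5.66. Wild-type replicate 2 lay among the knockout arrays, and the change of -0.26 did not pass (95% interval -0.59 to 0.06, adjusted p = 0.288). Without that array it was -0.41 (adjusted p = 0.0484). A second Ier5 probe set, with means of 5.45 and 5.49, differed by 0.04, and the last, dim in both groups (2.51 and 2.60), by 0.10. Neither passed, with all arrays or without wild-type replicate 2, and with all arrays the negative difference came from the brightest probe set alone.

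Of the NR4A genes, Nr4a1 fell and Nr4a2 did not pass the test. Nr4a1 (chr15:101253902-101274795), the gene of the orphan receptor NUR77, read 9.43, 9.29 and 9.18 on the wild-type arrays and 8.81, 8.80 and 8.90 on the knockout arrays. The groups were 0.28 apart, and the means of 9.30 ± 0.13 and 8.84 ± 0.06 (SD, n = 3) differed by -0.46 (limma, SE 0.08, adjusted p = 0.0104), or 1.38-fold. This was the smallest of the 5 falls and the nearest to the threshold, with an adjusted p of 0.0493 without knockout replicate 2. Nr4a2 (chr2:57106830-57124003), the gene of NURR1, a receptor known for its part in dopamine neurons, read 5.45, 5.58 and 5.41 against 5.51, 5.34 and 5.73. Its groups overlapped and its change of 0.05 did not pass (95% interval -0.21 to 0.31, adjusted p = 0.83). None of its 6 probe sets passed, with changes from -0.26 to 0.19, and 3 of them did not reach the all-array median in either group.

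Unequal change of relatives was tested within each array, as the difference of the 2 log2 values between groups, over the 8 pairs that the 4 families allow. With 3 arrays against 3, the exact two-sided permutation test cannot give a p below 0.1, so no pair could pass. Of the 8 pairs, 6 reached that smallest value with no overlap between groups, and their adjusted p over the 8 pairs was 0.133. Read by the brightest probe sets on all arrays, Zfp36l1 minus Zfp36l2 had the largest shift. Relative to its wild-type mean it was 0.00, 0.15 and -0.16 on the wild-type arrays and 1.45, 1.52 and 1.40 on the knockout arrays. That is a shift of 1.46, or 2.75-fold. Over the alternative settings it ran from 1.07 to 1.53, and Zfp36 minus Zfp36l1 from -1.55 to -1.21. Which of these 2 pairs shifted more depended on the setting. Zfp36 minus Zfp36l1 shifted by -1.38 (2.60-fold), Ier2 minus Ier3 by -1, Btg1 minus Btg2 by 0.82, Ier3 minus Ier5 by 0.55 and Nr4a1 minus Nr4a2 by -0.51. Ier2 minus Ier5 shifted by -0.45 with overlapping groups (exact permutation p = 0.2, adjusted p = 0.229). For Zfp36 minus Zfp36l2 the groups overlapped and the shift was 0.08 (exact permutation p = 0.6), and its sign depended on the probe sets and arrays used (-0.38 with the mean of all probe sets of a gene, -0.02 without wild-type replicate 2).

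**Figure D4:**
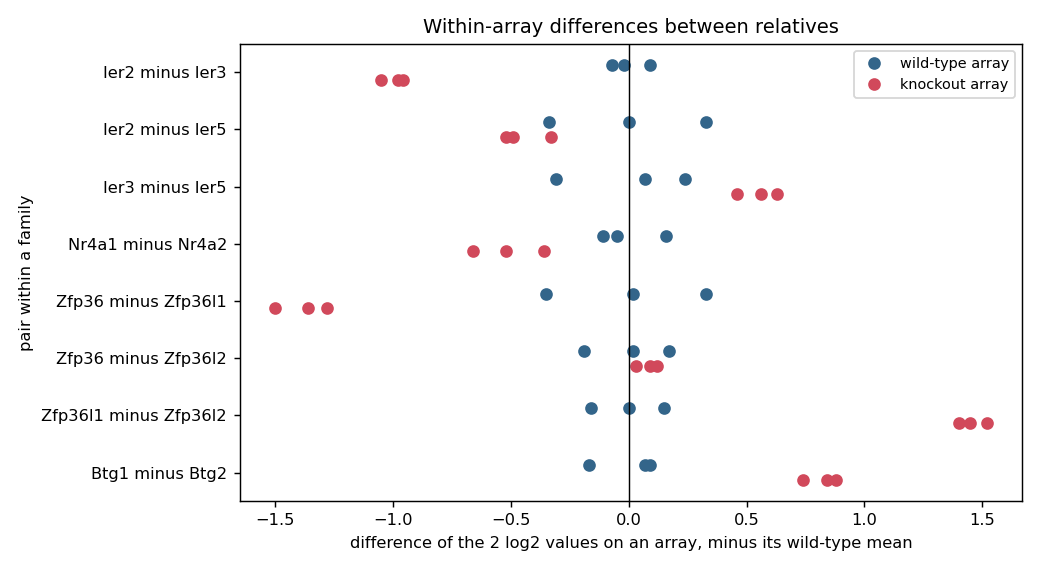
Difference of the log2 values of 2 relatives on each array minus the wild-type mean of that difference (horizontal axis), for the 8 pairs within a family; blue points are wild-type arrays and red points knockout arrays, 3 each. The groups are farthest apart for Zfp36l1 minus Zfp36l2 and Zfp36 minus Zfp36l1, and overlap for Ier2 minus Ier5 and Zfp36 minus Zfp36l2.

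Relatives of the 10 genes that are not classed with them here were examined next. Of 5 measured relatives, Ier5l, Nr4a3, Btg4, Tob1 and Tob2, none passed the limma test at an adjusted p under 0.05 or at an unadjusted p under 0.05. Their changes ran from 0.00 for Ier5l to 0.22 for Btg4 (unadjusted p = 0.0619). Of 3 retinoid X receptors, the partners of NR4A proteins, Rxrb rose by 0.25 (adjusted p = 0.0425). Its call was lost without any 1 array other than wild-type replicate 1, with adjusted p values from 0.0834 without wild-type replicate 2 to 0.135 without knockout replicate 3.

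The decay machinery that ZFP36 and BTG proteins recruit was taken as the next list. Of 13 measured deadenylase genes, most of them CCR4-NOT subunits, none fell and 1 rose, with a median log2 fold change of 0.00. Of all genes, 10.4% were lower and 8.53% higher. The riser was the catalytic subunit gene Cnot6 (0.32, limma adjusted p = 0.0146), whose call was lost without any 1 of the knockout arrays (adjusted p = 0.0648, 0.0515 and 0.0631). Cnot7 and Cnot8, whose products BTG proteins bind, did not pass, with differences of 0.13 (95% interval -0.15 to 0.41) and 0.00 (95% interval -0.18 to 0.18). Of 8 decapping and decay factors, 1 fell (12.5%, near the 10.4% of all genes) and none rose. The decapping activator gene Dcp1a fell, from 8.73, 8.71 and 8.64 to 7.93, 7.91 and 7.88, by 0.79 (SE 0.06, adjusted p = 0.000288). None of 6 other proteins that bind AU-rich elements passed, also at an unadjusted p under 0.05. The lowest p was that of Tia1 (0.0564, a change of 0.23).

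Of 16 messenger RNAs known as targets of ZFP36 proteins, 2 fell (12.5%, against 10.4% of all genes), none rose and 14 did not pass, with a median of 0.05. Of the 16, 6 did not reach the all-array median in either group. The cyclin gene Ccnd1 fell by 0.71 (SE 0.06, limma adjusted p = 0.00056) and the AP-1 gene Fos by 0.58 (SE 0.09, adjusted p = 0.00481). Without wild-type replicate 1, Ptgs2 fell as well (-1.12, adjusted p = 0.0147) and 3 targets rose: Ier3, which is itself in this list, Notch1 (0.30, adjusted p = 0.0258) and Nanog (0.29, adjusted p = 0.0409). Without wild-type replicate 3, Myc fell (-0.51, adjusted p = 0.0204). The counts also moved with the variance model and filter: 3 targets rose with dim probe sets left out, with an intensity trend or with array weights, and 4 fell with either of the last settings.

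The other immediate early genes were set beside the same background. Of 21 genes of the EGR, AP-1, KLF and DUSP families, 13 fell (61.9%, against 10.4% of all genes) and 1 rose, with a median log2 fold change of -0.56. When 1 array was left out, 9 to 12 fell. Egr1 went from 9.86 to 4.98, Jun fell by 2.06 and the MAP kinase phosphatase gene Dusp1 by 1.15. The rise was that of Klf2, a factor of the naive stem cell state (0.62, limma adjusted p = 0.021), and its call was lost without wild-type replicate 2 (adjusted p = 0.0561) and without any 1 of the knockout arrays (0.0684, 0.0684 and 0.0746). Of 26 further immediate early genes, 12 fell (46.2%) and none rose, with a median of -0.32, and 7 fell without knockout replicate 2. The matricellular genes Ccn1 and Ccn2 fell by 1.78 and 1.38 and the kinase gene Plk2 by 0.86. All these values share the same 6 arrays and some of the genes had been described on them before, so the counts are not independent evidence.

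Of 11 measured upstream regulators, 1 fell (9.09%) and 1 rose, with a median of 0.00. These counts are near the shares of all genes, 10.4% lower and 8.53% higher. Elk3, an ETS factor gene of the ELK1 family, fell by 0.93 (SE 0.10, limma adjusted p = 0.00101), and the ribosomal S6 kinase gene Rps6ka3 rose by 0.37 (adjusted p = 0.00742). No regulator rose when a gene was read by the mean of all its probe sets. Btg2 is known as a p53-induced gene, so p53 targets were listed too. Of 12 measured p53 targets, 7 fell (58.3%) and none rose, with a median of -0.45, and 6 to 9 fell when 1 array was left out. Whether p53 had a part in these values or in that of Btg2 was not tested. Perp, a gene of cell adhesion and cell death, fell by 2.80, Zmat3 by 1.16 and Phlda3, an inhibitor of AKT signalling, by 0.81.

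**Figure D5:**
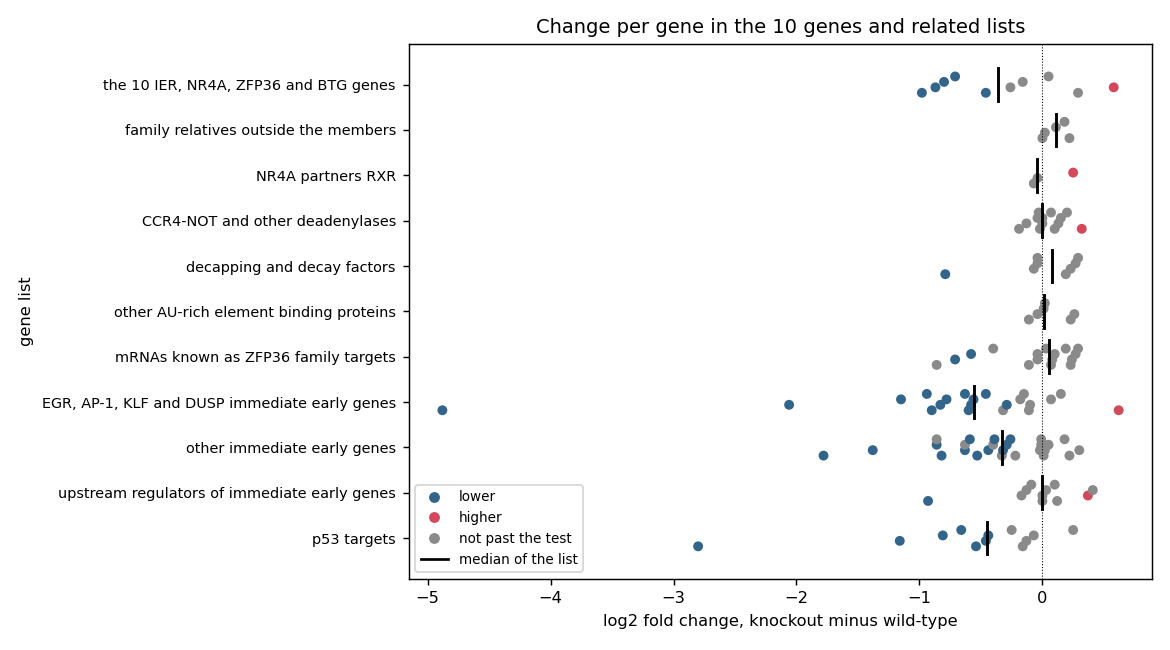
Log2 fold change, knockout minus wild-type (horizontal axis), of each gene in the 10 IER, NR4A, ZFP36 and BTG genes and in 10 related lists; blue, red and grey points are lower, higher and not past the test, and black lines are list medians. The medians of the lists of immediate early genes (-0.56 and -0.32) and of p53 targets (-0.45) lie below 0, while those of the deadenylases and decay factors lie at 0.00 and 0.08.

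The place of the 10 genes in the genome was examined because neighbouring genes can shift together between cell lines. With RefSeq gene order, the 10 measured genes on each side of a member had median log2 fold changes from -0.07 around Ier2 to 0.16 around Zfp36l1. The surroundings of the 5 genes that fell lay at -0.07 (Ier2), 0.00 (Nr4a1), 0.02 (Zfp36), 0.01 (Zfp36l2) and -0.01 (Btg2), and each of the 5 was 0.46 to 0.96 lower than its surroundings. Among the 20 neighbours, none fell further than Ier2, Zfp36, Zfp36l2 or Btg2, and 1 had a larger negative difference than Nr4a1. Zfp36l1 was 0.42 higher than its surroundings, where 4 of 20 genes rose and 2 fell, and 1 of the 20 rose further than Zfp36l1. With 20 genes on each side, 1, 1, 3 and 2 of the 40 neighbours had larger negative differences than Ier2, Zfp36, Zfp36l2 and Btg2. The median then was 0.01 around Ier2 and 0.09 around Zfp36l1, and with 5 genes on each side it was 0.02 and 0.19.

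The genes whose pattern over the 6 arrays was most like that of Btg2, the member with the largest change on all 6, were Hpcal1, Lypd2, Ppp1r14c, Hes6 and Kcnk1. Likeness was the Euclidean distance between the log2 values, each gene centred on its own mean, and the 5 distances were 0.124 to 0.195 among 18193 genes. Hpcal1, a neuronal calcium sensor gene, read 8.83, 8.67 and 9.11 on the wild-type arrays and 7.91, 7.96 and 8.01 on the knockout arrays. The 5 genes were 0.91 to 1.08 lower in the knockout on the log2 scale, a size that the choice by distance fixes.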

How the data were processed

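Per the labels' protocols, RNA came from Trizol extracts and was hybridised as biotin-labelled cRNA on Affymetrix arrays. The authors deposited log2 expression values, 1 column per array; no source states the log base, which was taken from their range. The submitters' processing notes name RMA and MAS5, with no role or version for either. The values were used as deposited and without detection calls, so low values cannot be separated from background, and levels of different probe sets are not compared.

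The 64 control probe sets among 45101 were dropped. Symbols came from the platform annotation (34945 probe sets with 1 symbol, 932 with several, 9160 with none), and 34741 were updated through RefSeq's GRCm38.p6 table. Coordinates and promoters are RefSeq's, since the values name no build. A gene was read by its probe set with the highest mean.

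Groups were compared with limma 3.58.1 under R 4.3.3 (eBayes, two-sided, 4 residual and 3.08 prior degrees of freedom), adjusted over 45037 probe sets and checked on simulated data. The titles call the replicates biological and say no more, so p values measure the spread between these samples. Family pairs had an exact permutation test. The members, lists and tests were chosen with earlier results of these data known. Named genes were the members, Med23, 3 ES cell genes, the 5 genes most like Btg2 and up to 3 genes of a list. The last were those past the test with the greatest change, or the lowest p where none passed. No gene of the mesoderm, neural and fibroblast lists was named by this rule. Afp, Ttr, the Y-linked genes, Klf2, Cnot7, Cnot8, the trophoblast lineage factors, the unchanged relatives and the targets called with 1 array left out were picked with their values already known. Of 10 pluripotency markers of the ES cells themselves 3 fell (1 to 3 lower and 0 to 2 higher when 1 array was left out). Of 5 mesoderm markers 1 fell (20%) and none rose. Of 7 neural markers 3 fell (42.9%) and 1 rose, and 1 fell with dim probe sets left out. Of 9 fibroblast markers 2 fell (22.2%) and 1 rose, with 1 to 2 lower and 0 to 1 higher when 1 array was left out. Of all genes, 10.4% were lower and 8.53% higher. These lists are of markers of other cells, some of which thus also differed between the groups. Their part in the values of the 10 genes was not tested. Alternatives were quantile normalization, 2 kinds of centring, a filter on dim probe sets, an intensity trend, robust variance, array weights, a replicate block, other probe set choices and leaving out each array.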

Additional observations from a re-analysis of the deposited data

How the results depend on the processing

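The 5 falls and the rise of Zfp36l1 kept direction and call in all 16 alternatives, the nearest to the threshold being Nr4a1 (adjusted p = 0.0493 without knockout replicate 2). Of the others, Ier3 passed with dim probe sets left out, an intensity trend or array weights, giving 2 genes higher in each, and without wild-type replicate 1 (1 to 2 genes higher when leaving out 1 array). Nr4a2 ran from -0.05 to 0.15 and Zfp36 minus Zfp36l2 from -0.02 to 0.16 when leaving out 1 array; the latter was -0.38 with the mean of all probe sets, which gives no count of probe sets. Leaving out 1 array, 1 to 3 member probe sets were higher, and 1497 to 3494 of all probe sets. Among the EGR, AP-1, KLF and DUSP genes 9 to 12 were then lower and 0 to 1 higher. Among the further immediate early genes 7 to 12 were lower and 0 to 2 higher, and 0 to 1 p53 targets were higher. Further immediate early genes higher numbered 1 with centring on the 75th percentile, dim probe sets left out, a trend or array weights, as did p53 targets with the last 3 of these. The cause of these shifts was not tested. With a replicate block the members gave 5 lower and 1 higher, and 1915 of all probe sets were higher against 3013. Deviations of same-numbered arrays from their group means correlated at -0.133, -0.0588 and 0.000831. The titles do not say whether the numbers pair the samples, and with 3 arrays a group these values cannot settle it. With 3 arrays a group, the spread of a single gene is poorly known, and dim probe sets are limited by background.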

Other observations

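Spread within the groups was uneven. For 9 of the 10 genes the SD was larger over the wild-type than over the knockout arrays, Nr4a2 being the exception; the same held for 69.1% of all genes, and the knockout arrays correlated more closely over all probe sets (0.9978 to 0.9981, against 0.993 to 0.9974 among wild-type arrays). Among the knockout arrays, replicate 3 was the highest for 9 of the 10 genes, Zfp36l1 being the exception, and for 32.5% of all genes. For the 9 genes it lay from 0.02 (Ier2) to 0.21 (Nr4a2) above the group mean. For Ier5, replicates 2 and 3 both read 5.66. Among the wild-type arrays, replicate 3 was the highest for 4 genes (Ier5, Zfp36, Btg1 and Btg2) and the lowest for 5, including Ier2, Nr4a1 and Zfp36l1.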
